A study of Homo sapiens with 33 samples.

Results

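EGR1, EGR2, EGR3, IER2, IER3, IER5, PHLDA1, SRF, NR4A1 and ZFP36, a set of EGR and other immediate early response genes, were followed in bulk RNA sequencing of cetuximab-treated HNSCC cell lines. They were chosen by name, with earlier results of these data known, and are 10 of the 56470 gene symbols in the table. SCC1, SCC6 and SCC25 are established lines of head and neck squamous cell carcinoma. Each was grown with 100 nM cetuximab (CTX), an antibody that blocks the EGF receptor (EGFR), or with PBS as the untreated control, and no line carried an introduced allele. PBS libraries covered days 0 to 5 and CTX libraries days 1 to 5, with 1 library per line, treatment and day. Among the SCC6 libraries with CTX, 2 are labelled day 2, called 2a and 2b here, and none day 1. The 5 libraries of days 1 to 5 of a line and treatment therefore stood in for replicates, and p-values measure only the spread among libraries of different days.

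Immediate early genes are transcribed within minutes of growth factor signalling, from transcription machinery that is already in the cell. Downstream of EGFR, the kinase ERK phosphorylates ternary complex factors such as ELK1, which sit with SRF on CArG boxes in promoters and switch on EGR1, FOS and related genes. Their mRNAs are usually short-lived, partly because proteins such as ZFP36 bind AU-rich elements in their 3′ untranslated regions.

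Total counts per library ranged from 28508539 to 80727185, and the deepest were the SCC6 CTX libraries of days 4 and 5, alone on 1 of the 5 flow cells. Flow cells, called A to E here, were partly confounded with treatment, and the lines were for the most part on different flow cells. In flow cell A were all SCC25 PBS libraries and CTX of days 1 and 2, in C were PBS of day 5 and all CTX libraries of SCC1, and in D were PBS of days 2 to 5 and CTX libraries 2a, 2b and 3 of SCC6. SCC6 PBS of days 0 and 1 was on flow cell C. Sample titles also give a number after the flow cell. In D it was 1 for all SCC6 PBS libraries and 2 for all CTX libraries. Within D this number and treatment cannot be told apart, nor in the SCC6 fits with flow cell as a covariate. Levels are given as CPM, counts scaled to library size with TMM factors over all libraries. In bulk RNA, fewer cells that express a gene and less RNA per cell cannot be told apart. Squamous markers were expressed in all 3 lines, and their summed level on days 1 to 5 was 1385 to 2588 CPM with PBS and 6226 to 10085 CPM with CTX in SCC1. It was 1282 to 1969 against 1749 to 2641 CPM in SCC6, and 9529 to 14209 against 11638 to 13870 CPM in SCC25. Summed fibroblast markers also moved, from 21.0 to 32.7 CPM with PBS to 49.8 to 145.9 CPM with CTX in SCC1, from 2.85 to 4.94 to 8.93 to 114.8 CPM in SCC6, and from 145.2 to 196.3 to 251.7 to 404.8 CPM in SCC25. Summed leukocyte markers were at 17.3 to 47.9 and 6.32 to 9.57 CPM in SCC1, 16.4 to 18.7 and 3.94 to 7.12 CPM in SCC6, and 167.5 to 233.6 and 144.0 to 174.5 CPM in SCC25, with CD68 the one leukocyte marker that passed the filter on low counts, and endothelial markers were at 0.308 to 18.5 CPM. The B cell marker MS4A1 was under 0.1 CPM in every library of days 1 to 5, and the part of other cell types in the results was not tested.

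The members are compact genes. On GRCh37, their canonical GENCODE transcripts spanned 1349 bases (IER3) to 10238 bases (SRF), against a median of 23019 bases over 19881 protein-coding genes. IER5 had 1 exon, 7 members had 2 exons, and SRF and NR4A1 had 7, against a median of 8. A CArG box lay within 500 bases upstream of the start of EGR1, EGR2, EGR3 and SRF, on either strand, which is 4 of 10 members and 2.4% of 19861 promoters. The 300 bases before the start of 3 of these genes are shown because they hold the sites through which SRF is known to act, with CArG boxes in capitals, read on the strand of the gene.

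EGR1 (chr5:137800868-137801167, plus strand, GRCh37): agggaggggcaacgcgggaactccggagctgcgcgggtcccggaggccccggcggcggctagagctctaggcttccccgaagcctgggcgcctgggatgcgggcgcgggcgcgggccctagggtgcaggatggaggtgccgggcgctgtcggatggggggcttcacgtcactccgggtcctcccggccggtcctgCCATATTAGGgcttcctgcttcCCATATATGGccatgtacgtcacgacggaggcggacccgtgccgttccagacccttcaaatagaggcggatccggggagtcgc
EGR2 (chr10:64576127-64576426, minus strand, GRCh37): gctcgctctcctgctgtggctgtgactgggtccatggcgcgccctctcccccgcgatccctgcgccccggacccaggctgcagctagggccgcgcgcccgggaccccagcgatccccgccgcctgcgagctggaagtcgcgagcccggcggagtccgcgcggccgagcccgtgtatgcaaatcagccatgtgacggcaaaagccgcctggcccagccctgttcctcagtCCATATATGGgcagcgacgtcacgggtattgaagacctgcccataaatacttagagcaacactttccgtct
SRF (chr6:43138707-43139006, plus strand, GRCh37): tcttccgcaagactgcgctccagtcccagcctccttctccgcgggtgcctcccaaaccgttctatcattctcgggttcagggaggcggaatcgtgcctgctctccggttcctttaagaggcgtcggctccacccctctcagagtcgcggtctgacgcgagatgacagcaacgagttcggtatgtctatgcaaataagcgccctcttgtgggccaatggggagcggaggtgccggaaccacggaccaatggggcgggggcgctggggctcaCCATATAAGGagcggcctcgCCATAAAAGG

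EGR1 carried 5 CArG boxes, beginning 83, 105, 364, 380 and 418 bases before its start, of which the nearest 2 are in the window shown. EGR2 held 2, beginning 71 and 370 bases before the start, EGR3 held 1 at 71 bases, and SRF held 2, at 10 and 30 bases. Of the other motifs searched, also on both strands, GCGNGGGCG, bound by EGR proteins, was found in 3 members (EGR1, NR4A1 and SRF) and in 15.4% of promoters, and CCGGAAG, bound by ETS factors, in 3 members (EGR1, EGR3 and IER2) and in 14.9%. TGACGTCA and TGANTCA were in none of the 10 windows and in 2.89% and 9.69% of promoters. These are matches of letters, and binding was not measured.

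At the other end of the transcript, TATTTAT, the core of an AU-rich element, was present in the 3′ untranslated region of IER3, IER5, PHLDA1, SRF and ZFP36, with 2 to 4 copies each, against 31.5% of the genes with such a region. These regions had 737, 3014, 4672, 2316 and 708 bases in that order, against a median of 1068, and the share was not matched for length. Of 3 of these genes the first copy is given below, in capitals between flanking bases, since ZFP36 protein is known to bind this element.

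IER3: ctaattaaTATTTATatgtattt
PHLDA1: aagactttTATTTATgaaccttt
ZFP36: gggcccttTATTTATgacgactt

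**Figure D1:**
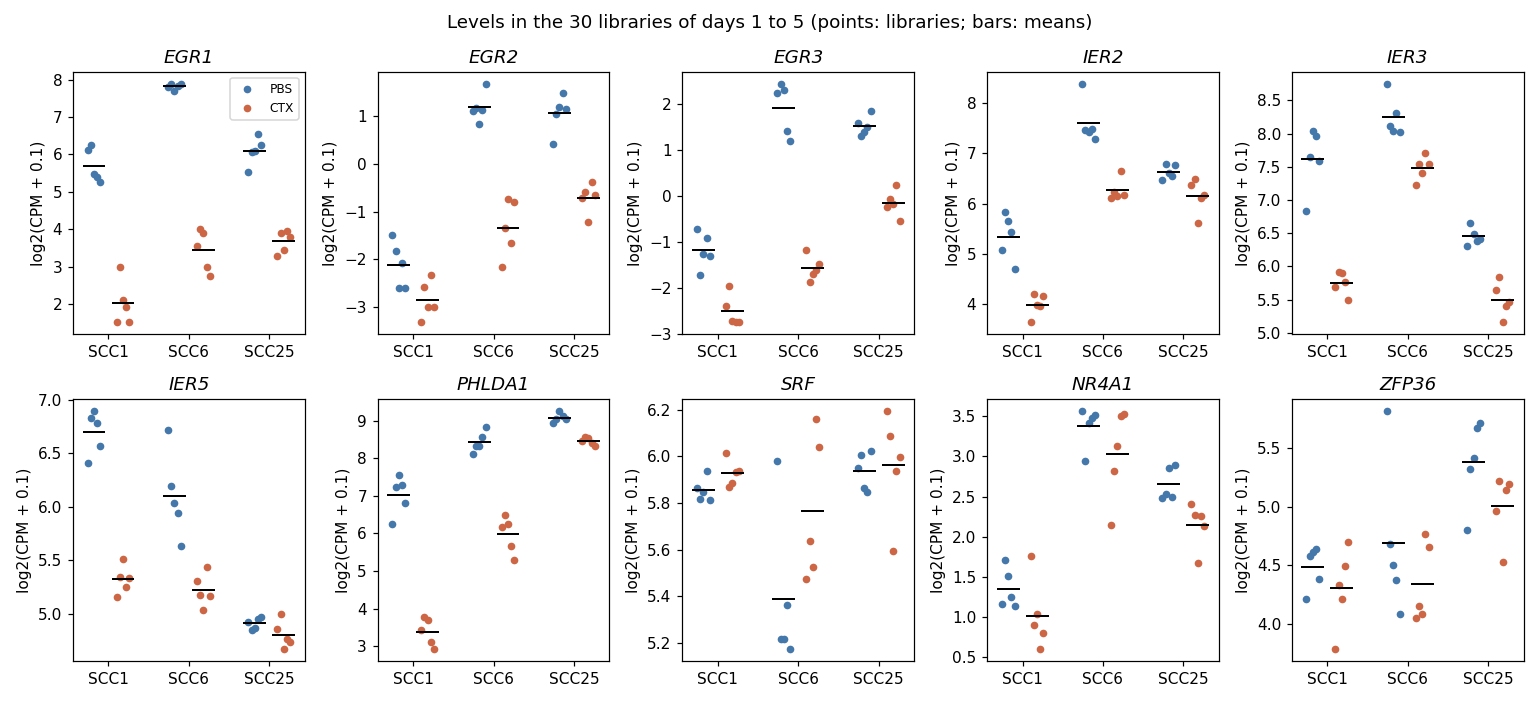
Level of each member, as log2(CPM + 0.1), in the 30 libraries of days 1 to 5, by line and treatment; each point is 1 library and bars are means. EGR1 lies between 37.9 and 236.9 CPM with PBS and between 2.75 and 16.0 CPM with CTX, while SRF, whose axis is much narrower, overlaps between treatments in every line.

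EGR1 fell in all 3 lines. EGR1, a zinc finger transcription factor, was measured in SCC1 at 69.5, 76.2, 44.0, 41.6 and 37.9 CPM with PBS on days 1 to 5 and at 2.79, 7.85, 4.19, 3.70 and 2.75 CPM with CTX. In SCC6 it was at 224.8, 236.9, 208.8, 227.9 and 235.0 CPM with PBS, and at 11.6 (2a), 16.0 (2b), 14.7, 7.86 and 6.62 CPM with CTX. In SCC25 it was at 45.8, 66.7, 68.5, 94.1 and 76.7 CPM with PBS and at 9.71, 14.7, 10.8, 15.4 and 13.8 CPM with CTX. Every CTX library was below every PBS library of its line. The log2 fold change of CTX against PBS was -3.64 ± 0.31 (SE) in SCC1 (adjusted p = 3.05e-06), -4.35 ± 0.24 in SCC6 (adjusted p = 2.97e-06) and -2.44 ± 0.18 in SCC25 (adjusted p = 2.32e-05), by the quasi-likelihood test of edgeR, adjusted over all genes tested after Benjamini and Hochberg. Mean EGR1 with CTX was 7.90%, 5.01% and 18.3% of the PBS mean in the 3 lines in that order. Within a flow cell, the log2 ratio of means was -3.13 in SCC1 (1 PBS and 5 CTX libraries), -4.00 in SCC6 (4 and 3) and -2.52 in SCC25 (5 and 2).

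EGR2 and EGR3, its close relatives, were expressed at far lower levels. In SCC6, EGR2 was at 2.07, 2.15, 1.68, 2.08 and 3.11 CPM with PBS and at 0.125 (2a), 0.296 (2b), 0.496, 0.214 and 0.472 CPM with CTX. In SCC25 it was at 1.24, 1.97, 2.20, 2.71 and 2.13 CPM with PBS and at 0.512, 0.561, 0.329, 0.669 and 0.538 CPM with CTX. The groups did not overlap in these lines, and EGR2 fell by 2.79 ± 0.32 on the log2 scale in SCC6 (adjusted p = 0.000104) and by 1.95 ± 0.23 in SCC25 (adjusted p = 0.000275). EGR3 was at 4.66, 5.34, 4.86, 2.55 and 2.20 CPM with PBS in SCC6 and at 0.344 (2a), 0.172 (2b), 0.209, 0.228 and 0.257 CPM with CTX. In SCC25 it was at 2.92, 2.38, 2.51, 2.74 and 3.52 CPM against 0.747, 0.851, 0.784, 1.08 and 0.582 CPM. Again no library overlapped, and EGR3 fell by 4.04 ± 0.32 in SCC6 (adjusted p = 1.14e-05) and by 1.79 ± 0.17 in SCC25 (adjusted p = 8.49e-05). In SCC6 both genes passed the filter on low counts through their PBS libraries. In SCC1 they did not pass it: EGR2 had 3 to 10 counts with PBS and 0 to 4 with CTX, and EGR3 had 9 to 20 and 2 to 7, so that a change of EGR2 was not detectable at this depth. The EGR3 groups of SCC1 did not overlap.

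The IER genes, a set of small intron-poor response genes, had smaller log2 fold changes than EGR1 in each line. IER2, a nuclear protein, was at 33.5, 56.9, 50.3, 43.0 and 26.0 CPM with PBS in SCC1 and at 12.4, 18.3, 15.8, 15.4 and 17.9 CPM with CTX, a log2 fold change of -1.38 ± 0.19 (adjusted p = 8.04e-05). Only PBS of day 5 shared a flow cell with the CTX libraries there: with flow cell as a covariate the change was -0.69 ± 0.23 (adjusted p = 0.049), and within flow cell C the log2 ratio was -0.70 (1 PBS and 5 CTX libraries). In SCC6 it was at 332.9, 176.8, 172.4, 177.5 and 155.3 CPM with PBS and at 68.6 (2a), 75.5 (2b), 70.9, 100.0 and 71.9 CPM with CTX, a log2 fold change of -1.42 ± 0.20 (adjusted p = 0.000432). PBS of day 1, on flow cell C, stood above the rest, and within flow cell D the log2 ratio was -1.25. In SCC25 the groups overlapped, at 88.6 to 110.7 CPM (median 97.7) with PBS and 48.8 to 90.3 CPM (median 72.4) with CTX. The change there was -0.45 ± 0.14 (adjusted p = 0.0394), but it was -0.19 ± 0.14 with flow cell as a covariate (adjusted p = 0.43). It was also past the threshold no longer when any 1 of 6 libraries was left out (CTX of days 4 or 5, or PBS of days 2, 3, 4 or 5; adjusted p between 0.057 and 0.097).

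IER3, an inhibitor of cell death that also binds ERK, was at 114.5, 199.6, 262.1, 248.8 and 191.7 CPM with PBS in SCC1 and at 51.4, 60.4, 59.3, 54.3 and 45.0 CPM with CTX. It fell in all 3 lines, by 1.89 ± 0.18 in SCC1 (adjusted p = 5.94e-06), 0.81 ± 0.15 in SCC6 (adjusted p = 0.00181) and 0.93 ± 0.11 in SCC25 (adjusted p = 0.000348), and CTX and PBS libraries did not overlap in any of them. IER3 was the most abundant member per length in untreated SCC6, at 250.1 CPM per kb of transcript, above IER2 (96.2), EGR1 (72.3) and PHLDA1 (59.1), and above EGR3 (0.869) and EGR2 (0.744). IER5, a nuclear protein of the heat shock factor pathway, was at 84.8, 113.3, 118.8, 109.9 and 94.7 CPM with PBS in SCC1 and at 35.6, 40.7, 45.6, 38.1 and 40.4 CPM with CTX. It fell by 1.36 ± 0.09 in SCC1 (adjusted p = 8.15e-07) and by 0.95 ± 0.18 in SCC6 (adjusted p = 0.00212). Within flow cell D, the log2 ratio in SCC6 was -0.73 for IER3 and -0.79 for IER5. In SCC25 IER5 was at 28.8 to 31.3 CPM with PBS and 25.3 to 31.8 CPM with CTX, and its change of -0.10 ± 0.07 did not pass the test (adjusted p = 0.357).

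PHLDA1, a pleckstrin homology-like domain protein, had the widest range of changes among the lines. With PBS it was at 76.1, 151.3, 188.6, 156.7 and 111.5 CPM in SCC1, at 277.7, 319.7, 321.1, 375.1 and 454.1 CPM in SCC6 and at 486.6, 525.5, 609.9, 551.5 and 528.9 CPM in SCC25. With CTX it was at 10.6, 13.6, 12.9, 8.60 and 7.43 CPM in SCC1, at 71.3 (2a), 89.7 (2b), 76.5, 50.8 and 38.8 CPM in SCC6 and at 353.7, 374.6, 370.8, 337.7 and 319.5 CPM in SCC25. The line with the highest untreated level kept the most of it: the CTX mean was 7.77% of the PBS mean in SCC1, 18.7% in SCC6 and 65.0% in SCC25. The log2 fold changes were -3.66 ± 0.24 (adjusted p = 7.73e-07), -2.45 ± 0.22 (adjusted p = 2.22e-05) and -0.61 ± 0.07 (adjusted p = 0.000191).

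SRF, NR4A1 and ZFP36 passed the test in neither SCC1 nor SCC6 over days 1 to 5, unlike the other members tested there. In SCC25, NR4A1 passed it and IER5 did not. SRF, the transcription factor that binds CArG boxes, was at 56.1 to 61.1 CPM with PBS and 58.3 to 64.5 CPM with CTX in SCC1, and at 57.5 to 64.9 and 48.2 to 73.1 CPM in SCC25. In SCC6 it was at 63.1, 37.1, 37.1, 41.1 and 36.0 CPM with PBS and at 44.4 (2a), 49.7 (2b), 46.0, 71.3 and 65.8 CPM with CTX. The change passed the test in none of them, at 0.09 ± 0.05 in SCC1 (adjusted p = 0.138), 0.34 ± 0.19 in SCC6 (adjusted p = 0.188) and 0.05 ± 0.10 in SCC25 (adjusted p = 0.78). In SCC6 this rested on PBS of day 1: without it SRF was higher with CTX by 0.52 ± 0.15 (adjusted p = 0.017), and with flow cell as a covariate by 0.28 ± 0.08 (adjusted p = 0.017). In SCC1 it was higher by 0.14 ± 0.05 (adjusted p = 0.041) when libraries were scaled by their totals.

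NR4A1, an orphan nuclear receptor, was at 2.10 to 3.17 CPM with PBS and 1.41 to 3.28 CPM with CTX in SCC1, at 7.59 to 11.7 and 4.34 to 11.4 CPM in SCC6, and at 5.50 to 7.35 and 3.09 to 5.21 CPM in SCC25, where the groups did not overlap. It passed the test in SCC25, at -0.49 ± 0.14 (adjusted p = 0.0327), against -0.29 ± 0.22 in SCC1 (adjusted p = 0.309) and -0.32 ± 0.23 in SCC6 (adjusted p = 0.335), and the difference between lines did not pass its own test. The SCC25 call was lost with day as a block (adjusted p = 0.053) and with flow cell as a covariate (-0.32 ± 0.18, adjusted p = 0.30). It was also lost when any 1 of 5 libraries was left out (CTX of days 4 or 5, or PBS of days 2, 3 or 5; adjusted p between 0.052 and 0.085). Without CTX of day 1 it was -0.54 ± 0.17 in SCC1 (adjusted p = 0.021), and with flow cell as a covariate it was -0.63 ± 0.20 in SCC6 (adjusted p = 0.038). ZFP36, the mRNA decay factor also called tristetraprolin, overlapped between treatments in every line, at 18.5 to 24.8 and 13.7 to 25.9 CPM in SCC1, 16.9 to 56.3 and 16.4 to 27.2 CPM in SCC6, and 27.8 to 52.3 and 23.0 to 37.2 CPM in SCC25. Its changes of -0.14 ± 0.14, -0.49 ± 0.30 and -0.38 ± 0.17 did not pass the test (adjusted p = 0.455, 0.248 and 0.137). Without PBS of day 1 in SCC25 the change was -0.49 ± 0.13 (adjusted p = 0.035).

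Counted over the members, 5 of 8 tested were called lower in SCC1, 7 of 10 in SCC6 and 7 of 10 in SCC25, and none higher. Of all genes tested, 22.1% were called lower in SCC1, 14.6% in SCC6 and 9.5% in SCC25, and 22.7%, 15.6% and 8.8% higher. The median log2 fold change over tested members was -1.37, -1.19 and -0.55, against 0.02, 0.00 and 0.01 over all genes. All CTX libraries lay below all PBS libraries for 6 of 10 members in SCC1, 7 in SCC6 and 6 in SCC25, against 16.3%, 7.98% and 8.91% of genes tested. The SCC1 count includes EGR3, which was not among the genes tested there. In SCC6, the counts of members called and of members without overlap both include EGR2 and EGR3. These passed the filter on low counts there through their PBS libraries. In a fit over the 30 libraries with line as a covariate, 9 of 10 members were called, where 41.5% of genes were, all of them lower with CTX. The changes ranged from -3.47 ± 0.23 for EGR1 to -0.33 ± 0.14 for ZFP36, whose adjusted p of 0.0499 passed 0.05 narrowly and did so no longer when any 1 of 19 libraries was left out, when libraries were scaled by their totals (0.079), without PBS of day 1 in SCC6 (0.13) and with flow cell as a covariate (0.11). SRF was not called, at 0.16 ± 0.08 (adjusted p = 0.0949), and was with flow cell as a covariate (0.23 ± 0.05, adjusted p = 0.0007).

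**Figure D2:**
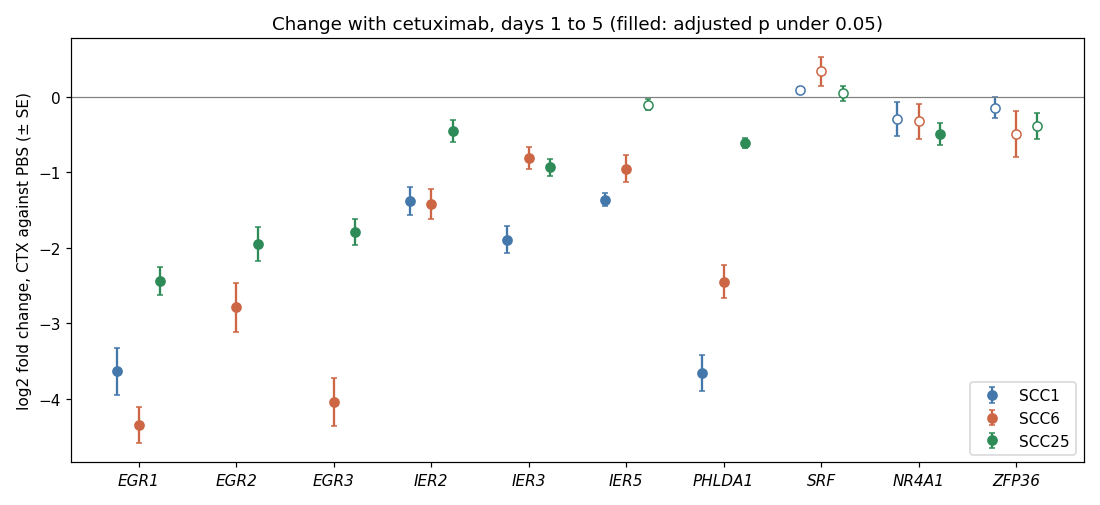
Log2 fold change of CTX against PBS on days 1 to 5 for each member and line, with its standard error; filled points passed an adjusted p of 0.05, and EGR2 and EGR3 have no point in SCC1, where they were filtered out. PHLDA1 spans -3.66 to -0.61 among the lines, and SRF lies between 0.05 and 0.34 with no filled point.

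Whether the size of the change differed between lines was tested with line-by-treatment terms, which 26.1% of genes passed. Of the members, 6 of 10 did: PHLDA1 (adjusted p = 2.53e-08), IER5 (1.24e-05), EGR3 (7.26e-05), EGR1 (0.00054), IER3 (0.000668) and IER2 (0.00969). EGR2, SRF, NR4A1 and ZFP36 did not (adjusted p = 0.241, 0.351, 0.843 and 0.747), though SRF did without PBS of day 1 in SCC6 (adjusted p = 0.018). EGR2 had 3 to 10 counts with PBS and 0 to 4 with CTX in SCC1, so its test could hardly show a difference that involves SCC1. The pairs of lines place the differences that passed. Between SCC6 and SCC1, 3 members were called, against 19.3% of genes: IER3 and PHLDA1 changed more in SCC1, by 1.11 ± 0.23 and 1.24 ± 0.29 on the log2 scale. The third was EGR3 (-1.95 ± 0.53, adjusted p = 0.00834), which did not pass the filter on low counts in the fit of SCC1 by itself, where it had 9 to 20 counts with PBS and 2 to 7 with CTX, so that the size of its change there is poorly known. This call was lost without CTX of day 2 in SCC1 (adjusted p = 0.072) and with flow cell as a covariate (adjusted p = 0.09). SCC25 changed less than SCC1 for 5 members, against 8.52% of genes, with PHLDA1 at 3.07 ± 0.29 and IER5 at 1.28 ± 0.18. The differences for EGR1 (1.21 ± 0.36, adjusted p = 0.0313) and IER2 (0.94 ± 0.27, adjusted p = 0.0258) were lost with flow cell as a covariate (adjusted p = 0.56 and 0.36), and without any 1 of 12 and of 5 libraries, respectively. SCC25 also changed less than SCC6 for 5 members, against 17.5% of genes, from 0.84 ± 0.18 for IER5 to 2.25 ± 0.36 for EGR3.

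Untreated levels differed between lines as well, in a comparison where most genes did. With PBS, 9 members differed between SCC6 and SCC1 (66.6% of genes), 8 between SCC25 and SCC1 (66.5%) and 9 between SCC25 and SCC6 (69.9%). EGR2 and EGR3 are among these counts, but as SCC1 held 3 to 10 and 9 to 20 counts of them and they passed the filter through the other lines, only their levels above are given. Between SCC25 and SCC6, the EGR3 call (adjusted p = 0.0445) was lost with libraries scaled by their totals (0.12), with no filter on low counts (0.098) and without any 1 of 14 of the 30 libraries (0.05 to 0.17), and the ZFP36 call without any 1 of 6 (0.07 to 0.096). EGR1 was higher in SCC6 than in SCC1 by 2.09 ± 0.25, and between SCC25 and SCC1 it did not differ beyond its spread (0.37 ± 0.24, adjusted p = 0.181). PHLDA1 ran in the order SCC1, SCC6, SCC25, and IER5 in the reverse order, each step past the test.

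The timing of the fall was examined with the first CTX library. EGR1 was already low in it, at -4.26 ± 0.64 in SCC1, -4.30 ± 0.44 (2a) and -3.84 ± 0.42 (2b) in SCC6 and -2.84 ± 0.36 in SCC25, each against the 5 PBS libraries (adjusted p = 0.00201, 0.00129, 0.00108 and 0.0129). In SCC1, 6 members were called in that library, where 16.4% of genes were. The call of ZFP36 among them (-0.70 ± 0.19, adjusted p = 0.0296) was lost without PBS of day 3 (0.054) or day 4 (0.053) and against PBS of days 1 and 2 only (0.11). In SCC6, EGR1, EGR2, EGR3 and PHLDA1 were called in both 2a and 2b, where 2.15% and 3.72% of genes were, and in SCC25, EGR1 and EGR3 were, against 0.325%. The EGR3 call in SCC25 was lost without any 1 of 7 libraries (adjusted p between 0.052 and 0.096). In SCC6, EGR2 and PHLDA1 were no longer called against PBS of days 1 and 2 only, at -4.09 and -2.11 in 2a and -2.88 and -1.79 in 2b. Nor was EGR3 in 2a without PBS of day 3 (-3.42). EGR2 had 4 (2a) and 12 (2b) counts in these libraries, and EGR3 11 and 7. Both passed the filter on low counts in SCC6 through their PBS libraries, so their calls are not to be read against the share of genes. A first CTX library stands alone in this fit, and its spread is taken from the PBS libraries and the later CTX libraries of the line.

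**Figure D3:**
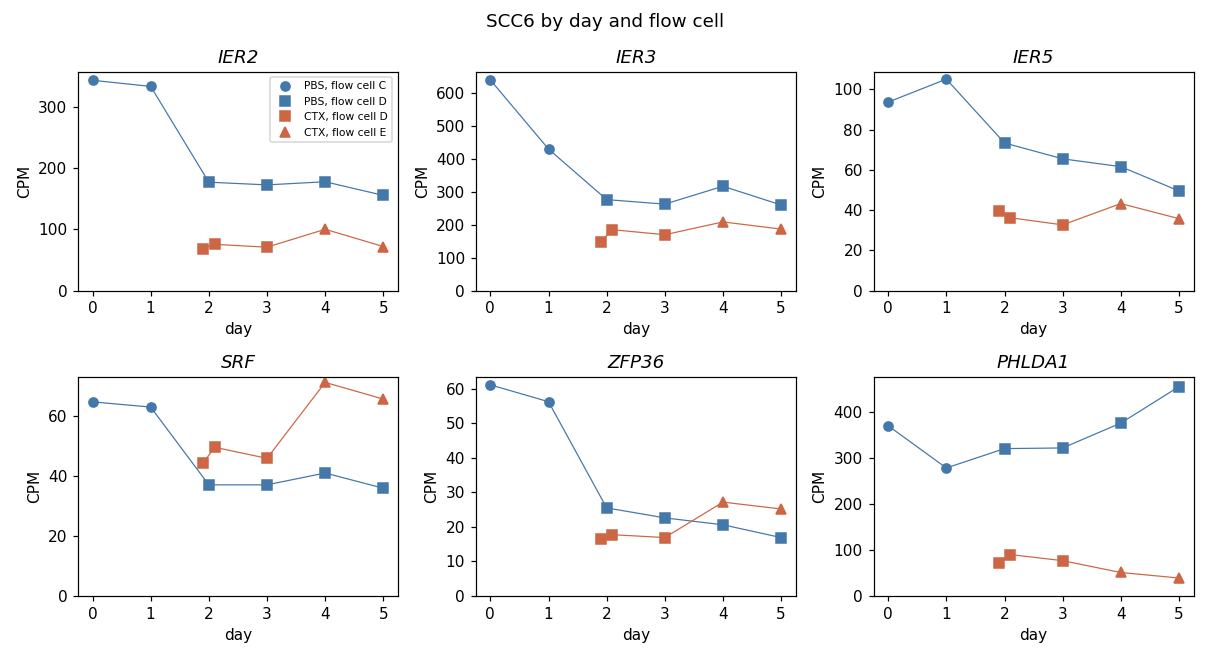
Level in CPM by day for 6 members in SCC6, with the flow cell as the marker shape; libraries 2a and 2b are drawn on either side of day 2. PBS of days 0 and 1 (flow cell C) stands above PBS of days 2 to 5 (flow cell D) for IER2, IER3, IER5, SRF and ZFP36. For IER2, PBS of day 1 is at 332.9 CPM against 155.3 to 177.5 CPM. PHLDA1 with CTX is lowest on days 4 and 5 (flow cell E).

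Days 1 to 3 and days 4 and 5 were also fitted apart. Of the members, 6 and 6 were called in SCC1 (29.6% and 29.9% of genes), 8 and 6 in SCC6 (20.3% and 37.8%) and 5 and 5 in SCC25 (7.84% and 2.71%). EGR1, PHLDA1 and IER3 were called in both periods of SCC1 and SCC25, IER2 and IER5 in both of SCC1, and EGR2 and EGR3 in both of SCC25. In SCC6, EGR1, EGR2, EGR3, IER2 and PHLDA1 were, and EGR3 passed the filter on low counts there through its PBS libraries. On days 4 and 5 in SCC25, calls were lost without any 1 of 4 libraries for IER3, of 3 for PHLDA1, of 3 for EGR2 and of 2 for EGR3. The changes were then -0.99 to -0.93, -0.74 to -0.67, -2.15 to -1.82 and -1.70 to -1.53, in fits that leave 1 library in a group. The IER2 call of days 4 and 5 in SCC1 was lost without any 1 of 3 libraries, at -1.14 to -0.63 in such fits. EGR3 was also among those called in SCC1, where it passed the filter through its PBS libraries, and its calls were lost without any 1 of 3 libraries in each period (adjusted p between 0.057 and 0.078) and, for days 1 to 3, with DESeq2 (0.052). In SCC6, ZFP36 went from -1.09 ± 0.30 (adjusted p = 0.0261) to 0.47 ± 0.36 (adjusted p = 0.332), and SRF from -0.03 ± 0.20 (adjusted p = 0.942) to 0.82 ± 0.24 (adjusted p = 0.022). The ZFP36 call of days 1 to 3 was lost without any 1 of the 3 CTX libraries (0.063 to 0.072), the SRF call of days 4 and 5 without any 1 of the 4 libraries of those days (0.052 to 0.13), and that of IER2 on days 4 and 5 without any 1 of 3 (0.072 to 0.16). IER3 and IER5 on days 4 and 5 did not pass (adjusted p = 0.0755 and 0.102). Both passed without PBS of day 1 (0.0026 and 0.012) and with no filter on low counts (0.0023 and 0.025), and IER3 with DESeq2 (0.042). Both also passed with day as a block with 2b as day 1 (0.017 and 0.042). That pairing is given by no label, and in it 2b correlated at -0.46 with PBS of day 1. NR4A1 on days 1 to 3 in SCC6 did not pass (adjusted p = 0.0858), and passed with that block (-0.66 ± 0.15, adjusted p = 0.019). It also passed with no filter on low counts (0.019), without PBS of day 2 (0.049) or CTX of day 3 (0.048), and narrowly with DESeq2 (0.05). ZFP36 on days 1 to 3 in SCC1 did not pass (adjusted p = 0.0951). It passed with the day block (-0.37 ± 0.10, adjusted p = 0.028), with no filter on low counts (0.032) and without PBS of day 1 (0.036). The difference between periods itself passed for no member in any line, and for 0% of genes, with edgeR. At an unadjusted p under 0.05, 1458 genes in SCC1, 5626 in SCC6 and 599 in SCC25 differed, and DESeq2 called 31, 2735 and 3, among them 3 members in SCC6. SCC6 CTX of days 4 and 5 was on its own flow cell, so the period and the flow cell cannot be told apart there.

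Without treatment, levels also moved over days 0 to 5. In SCC6, IER2, IER3, IER5, SRF and ZFP36 fell, by 0.19 (SRF) to 0.41 (ZFP36) per day on the log2 scale, among 38.3% of genes. Without day 0 the slopes of IER3 (-0.14, adjusted p = 0.13) and SRF (-0.17, adjusted p = 0.10) did not pass, and those of EGR3 (-0.33, adjusted p = 0.047) and PHLDA1 (0.15, adjusted p = 0.027) did. Days 0 and 1 were on another flow cell than days 2 to 5, and IER3 was at 640.0 CPM on day 0 and 260.2 CPM on day 5. In SCC25, on 1 flow cell, EGR1 rose by 0.21 ± 0.03 per day (adjusted p = 0.000911) and ZFP36 by 0.22 ± 0.02 (adjusted p = 7.9e-05), among 13.4% of genes. The number after the flow cell in the titles was 1 for days 0 to 3 there and 2 for days 4 and 5, so it was partly confounded with day. In SCC1 no member's slope passed with edgeR, where 3.22% of genes did. IER3 and ZFP36 had an unadjusted p under 0.05 there, DESeq2 called 1 member, and 4 were called without PBS of day 5.

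Genes around the members were counted in lists. Of all genes, 22.1%, 14.6% and 9.5% were called lower in SCC1, SCC6 and SCC25, and 22.7%, 15.6% and 8.8% higher. The lists were chosen with earlier results of these data known, so counts above these shares are a description and not a test. Of 12 genes of ERK feedback and output, 8 fell in SCC1, 10 in SCC6 and 8 in SCC25, and none rose. Among them DUSP6, a phosphatase of ERK, fell by 3.19 ± 0.22, 1.99 ± 0.12 and 1.22 ± 0.07 on the log2 scale, and DUSP5, DUSP4 and SPRY4, an inhibitor of receptor signalling, fell in all 3 lines. The list of 28 other immediate early genes had calls in both directions. In SCC1, 15 of 26 tested fell and 5 rose, in SCC6, 10 of 27 fell and 8 rose, and in SCC25, 7 of 27 fell and 1 rose. FOSL1 and FOS, subunits of AP-1, and MYC fell in all 3 lines, FOS by 2.09 ± 0.12, 2.43 ± 0.19 and 0.97 ± 0.22, while BTG2, an antiproliferative gene, rose in all 3, by 1.44 ± 0.15, 0.89 ± 0.16 and 0.33 ± 0.07.

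Among 12 partners and paralogs, ELK3, a ternary complex factor, fell in all 3 lines, by 1.52 ± 0.10, 1.48 ± 0.20 and 0.56 ± 0.07. In all, 6 fell and 4 rose of 11 tested in SCC1, 4 and 4 of 12 in SCC6, and 4 and 0 of 11 in SCC25. Of the cytoskeletal targets of SRF, 9 of 10 rose in SCC6, 4 of 10 in SCC25 and 3 of 9 in SCC1, where 4 fell. TAGLN, an actin-binding protein, rose by 0.73 ± 0.17, 4.10 ± 0.35 and 1.19 ± 0.17 in SCC1, SCC6 and SCC25, and MYL9, a myosin light chain, by 1.26 ± 0.10, 4.08 ± 0.36 and 1.39 ± 0.18. Of 8 heat shock and handling stress genes, 6 fell and 1 rose in SCC1 and in SCC6, and 1 fell in SCC25. The median of each list is set against an all-gene median of 0.02, 0.00 and 0.01: for ERK feedback and output it was -0.88, -1.22 and -0.66, for the other immediate early genes -0.50, -0.17 and -0.09, for partners and paralogs -0.22, -0.12 and -0.35, for SRF cytoskeletal targets -0.07, 1.47 and 0.07, and for heat shock genes -0.46, -0.69 and -0.16.

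**Figure D4:**
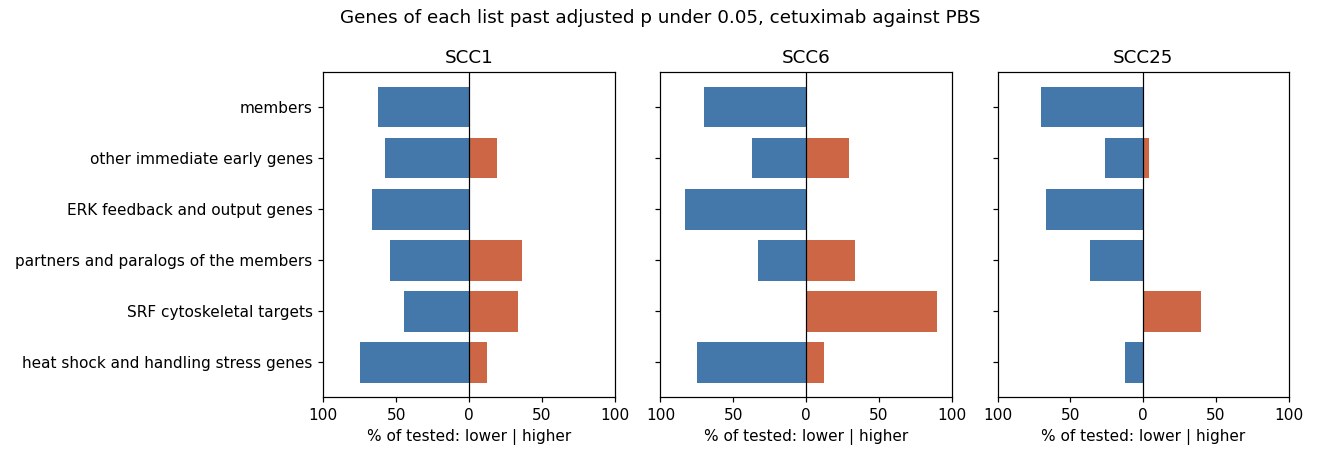
Percent of the tested genes of each list called lower (left) and higher (right) with CTX in each line. No member and no gene of ERK feedback and output is on the right in any line, and 9 of 10 SRF cytoskeletal targets are on the right in SCC6.

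The genes most like each member were sought over the 30 libraries of days 1 to 5, among 9926 genes, after the mean of each line was removed from log2(CPM + 0.1). All libraries share the treatment contrast, so that any gene that falls with CTX scores high, and the values are a description. EGR1 was most like DUSP5 (Pearson r = 0.97), SLC20A1 (0.96) and FOSL1 (0.95). EGR2 was most like NOB1, ERRFI1 and ETV4 (0.87, 0.87 and 0.86), and EGR3 was like PNO1 and CCT7 (each 0.92). IER2 was most like PHLDA2 (0.95), PCDH1 (0.95) and SERTAD1 (0.94), IER3 like ADAM8 (0.97), HMGA1 (0.97) and RAC2 (0.96), and IER5 like ANTXR2 (0.95), MAP2K3 (0.94) and LAMB3 (0.94). PHLDA1 was most like NT5E (0.98), STEAP1 (0.97) and SNX9 (0.97). SRF was most like CIC, GUCD1 and NCKAP5L (each 0.95), NR4A1 like UBL4A (0.79), STX1A (0.76) and TJAP1 (0.76), and ZFP36 like NECTIN1 (0.91), CDK9 (0.88) and ZNF710 (0.88). Among the members, IER2 and IER5 were most alike (0.93), EGR1 correlated at 0.90 with EGR3 and with PHLDA1, and SRF was negative with EGR1 (-0.47) and PHLDA1 (-0.44).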

How the data were processed

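Bulk RNA was sequenced from SCC1, SCC6 and SCC25 with PBS or cetuximab. The values the authors deposited are estimated counts per gene symbol, made with Salmon 0.8.2 (the version and the build, hg19 or GRCh37, are from the submitters' processing notes) and imported with tximport, not normalised between libraries. They were rounded here. Fits were run with edgeR 4.0.16 under R 4.3.3 (filterByExpr, TMM, quasi-likelihood F test, two-sided, Benjamini-Hochberg adjusted p under 0.05 over all genes tested), and limma 3.58.1, DESeq2 1.42.0 and Python 3.11.15 with numpy 2.4.6, pandas 2.3.3 and matplotlib 3.10.9 were also used. A pseudocount of 0.1 CPM was added for log2 ratios. Levels per kb used GENCODE canonical transcripts on GRCh37, which also gave the sequences. The fits were tested on simulated counts. Total counts, 28508539 to 80727185 per library, set the precision of each gene's level.

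The members and lists were chosen with earlier results of these data known. All members are named. From the other lists up to 4 genes are named, those called in all 3 lines first, and for each member the 3 most like genes with mean log2 CPM of at least 3. Of these like genes, 1 is not reported here. Libraries of a line and day share that day by their labels. After treatment means were removed, same-day libraries correlated at 0.1 to 0.36 in SCC1, at 0.19 to 0.54 in SCC25, and at 0.6, -0.2 and 0.02 on days 3 to 5 in SCC6. There 2a and 2b correlated at 0.58 and 0.54 with PBS of day 2, their labelled day, and at -0.38 and -0.46 with PBS of day 1, with which each was also blocked in turn. Day as a block, DESeq2, other scaling, no filter, each library left out, day 0 added, flow cell as a covariate and a minimum log2 fold change of 1 were tried as alternatives. Day 0 entered only the slopes and 1 alternative.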

Additional observations from a re-analysis of the deposited data

Results flagged for a closer look

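In 60 groups of 5 libraries, 5 held a library whose gap to its nearest neighbour was over 0.71 of the group's range, where chance gives about 1 in 20. In SCC6 with PBS, day 1 stood apart for IER2 (332.9 CPM, next highest 177.5), SRF (63.1 CPM, next highest 41.1) and ZFP36 (56.3 CPM, next highest 25.5). That library was on another flow cell than PBS of days 2 to 5, and the part of the flow cell was not tested. In SCC6 with CTX, day 4 stood apart for IER2 (100.0 CPM, next highest 75.5), and in SCC1 with CTX, day 2 for EGR1 (7.85 CPM, next highest 4.19).

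The change with cetuximab differed between the lines, by edgeR's line-by-treatment terms, for EGR1 (adjusted p = 0.00054), EGR3 (7.3e-05), IER2 (0.0097), IER3 (0.00067), IER5 (1.2e-05) and PHLDA1 (2.5e-08). In SCC1, EGR3 had 9 to 20 counts with PBS and 2 to 7 with CTX. It passed the filter on low counts through the other lines, so the size of its change in SCC1 is poorly known.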

How the results depend on the processing

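The falls of EGR1, IER3 and PHLDA1 in each line, of EGR2 and EGR3 in SCC6 and SCC25, and of IER2 and IER5 in SCC1 and SCC6 over days 1 to 5 kept their direction and stayed past the threshold under every alternative fitted except the minimum absolute log2 fold change of 1, which IER3 in SCC6 and SCC25, IER5 in SCC6 and PHLDA1 in SCC25 did not reach. Members called over days 1 to 5 numbered 5 to 7 in SCC1, 7 to 8 in SCC6 and 5 to 8 in SCC25 with 1 library left out, and 3 in SCC25 with a minimum absolute log2 fold change of 1. For the difference between periods in SCC6, DESeq2 called 3 members and no filter on low counts 6, against 0, and 0 to 4 with 1 library left out (4 without PBS of day 1, 3 without PBS of day 3). For library 2a DESeq2 called 7, PBS of days 1 and 2 only gave 2, and 1 library left out gave 3 to 7, against 4; for 2b, PBS of days 1 and 2 only gave 2 against 4. For the first SCC25 library, DESeq2 called 5, PBS of days 1 and 2 only gave 1, and 1 library left out gave 1 to 3, against 2. On days 4 and 5 in SCC25, 1 to 7 were called with 1 library left out, against 5 (1 without CTX of day 5, 2 without CTX or PBS of day 4, 3 without PBS of day 5). DESeq2 called 1 slope in SCC1 against 0, and 0 to 4 were called with 1 library left out. SCC6 against SCC1 gave 2 to 5 against 3 (5 without PBS of day 1 in SCC6), and SCC25 against SCC1 gave 3 to 5 against 5, and 3 with flow cell as a covariate. SRF on days 1 to 3 in SCC6 turned from -0.03 to 0.30 without PBS of day 1 (adjusted p = 0.035) and ranged from -0.17 to 0.30 with 1 library left out.

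Day as a replicate block changed no other call than those given beside the results, apart from IER5 on days 4 and 5 in SCC6 with 2a as day 1 (-0.51, adjusted p = 0.033), and left 5 of 8, 7 of 10 and 6 of 10 members called over days 1 to 5. Leaving out both SCC6 CTX libraries of flow cell E was added after the data were seen, and 7 members were called. By Spearman rather than Pearson correlation, 11 of the 30 like genes stayed in the top 3. The fits of the first SCC1 and SCC25 libraries cannot be made without that library. Depth limits EGR2 and EGR3 in SCC1.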
